A study of Mus musculus with 20 samples.

Results

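The 37 genes described here repair damaged DNA or signal that it is damaged. They were given as a list of names, with no measured value in the rule, and were grouped by role: 7 genes of the end joining core, 2 genes that steer the choice of repair at a break, 4 damage kinases, 3 genes of the break sensor, 12 recombination genes, 3 Fanconi genes and 6 genes of single strand and excision repair. Each was matched to the array through the transcript accession that the array design gives for a probe, and where a gene had several probes the brightest probe that passed the filter stood for it. All 37 had a probe, as did 22907 mouse genes in all. A probe was kept if it was well above background on all 3 arrays of some telogen group, or on 3 or more of the 5 anagen arrays. Of the 37 genes 36 passed, among 18723 genes. Fancd2, the protein that the Fanconi core complex modifies at blocked forks, did not pass: its probe was well above background on 6 of 20 arrays.

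A broken DNA double strand is mended by 2 main routes. In end joining, the Ku proteins hold the ends, the kinase DNA-PKcs and the nuclease Artemis prepare them, and ligase IV with its partner Xrcc4 seals them, at any time of the cell cycle and without a template. In recombination, the break sensor and the kinases Atm and Atr call in Brca1, Brca2 and their partners, and the sister strand is copied, so this route works only after replication. Hair follicle stem cells rest in telogen and divide at the start of anagen, and in mouse skin the stem cells of the bulge are known for using end joining after irradiation.

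Hair follicle stem cells of male mice gave the RNA, each sample hybridised with Cy3 label to 1 Agilent mouse array, 20 arrays in all. Normal diet (ND) and high fat diet (HFD) were each given for 3 months (ND 3M and HFD 3M, mice 5 months old) or for 4 days (ND 4d and HFD 4d, mice 2 months old), and the aged group (Aged) was 24 months old with no diet named. Each of these 5 conditions had 3 telogen arrays, numbered as replicates, and 1 anagen array. The labels give no strain, no pooling and no sorting gate, and they do not say whether replicates were separate mice, so each p-value measures only how these samples spread, which may be technical. ND 3M and ND 4d differ in age as well as in time on the diet.

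The letters before the starts of the 5 genes called higher in anagen than in telogen are shown. Whether those genes vary together was not tested. Each run below is the 250 bases before the start of a RefSeq transcript in GRCm38.p6, read 5′ to 3′ on the strand of the gene, with capitals for a CCAAT box (CCAAT), a GC box (GGGCGG), a CHR (TTTGAA) or an E2F-type word on either strand. Rad54l has 2 starts a base apart and Lig4 has 2 starts, and the start farther upstream is shown for each. The Lig4 run shown holds none of these words, and the GC boxes that count Lig4 below lie before its other start, in a window not shown.
Lig4, chr8:9977681-9977930, minus strand: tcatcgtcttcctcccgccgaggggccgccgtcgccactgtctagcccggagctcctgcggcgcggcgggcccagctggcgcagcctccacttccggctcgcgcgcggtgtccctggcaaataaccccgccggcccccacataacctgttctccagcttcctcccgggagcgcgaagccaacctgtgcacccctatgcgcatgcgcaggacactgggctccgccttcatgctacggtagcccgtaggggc
Chek1, chr9:36726659-36726908, minus strand: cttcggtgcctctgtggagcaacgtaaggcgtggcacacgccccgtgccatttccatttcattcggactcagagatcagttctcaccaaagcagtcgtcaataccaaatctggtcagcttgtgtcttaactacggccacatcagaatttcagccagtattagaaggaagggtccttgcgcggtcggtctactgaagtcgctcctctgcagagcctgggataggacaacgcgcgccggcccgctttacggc
Rad54l, chr4:116123691-116123940, minus strand: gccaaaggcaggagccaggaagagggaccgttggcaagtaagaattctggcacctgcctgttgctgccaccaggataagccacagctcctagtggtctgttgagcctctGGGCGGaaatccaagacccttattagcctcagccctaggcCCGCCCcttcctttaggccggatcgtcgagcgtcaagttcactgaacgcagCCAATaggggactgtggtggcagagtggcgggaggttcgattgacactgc
Fanci, chr7:79392088-79392337, plus strand: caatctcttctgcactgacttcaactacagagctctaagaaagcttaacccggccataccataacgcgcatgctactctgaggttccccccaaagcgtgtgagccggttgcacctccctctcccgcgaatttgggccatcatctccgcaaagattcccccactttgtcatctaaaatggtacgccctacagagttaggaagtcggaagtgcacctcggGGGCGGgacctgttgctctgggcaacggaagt
Msh6, chr17:87974800-87975049, plus strand: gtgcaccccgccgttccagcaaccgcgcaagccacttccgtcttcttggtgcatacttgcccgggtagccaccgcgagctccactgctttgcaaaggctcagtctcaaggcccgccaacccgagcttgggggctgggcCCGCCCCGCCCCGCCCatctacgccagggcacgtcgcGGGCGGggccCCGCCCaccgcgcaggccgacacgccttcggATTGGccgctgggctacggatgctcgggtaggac

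RefSeq windows of 300 bases, 250 before and 50 after a start, were found for 29 of the 37 genes. The E2F-type words searched were TTTCCCGC, TTTCCCGG, TTTCGCGC, TTTCGCGG, TTTGCCGC, TTTGCCGG, TTTGGCGC and TTTGGCGG, on both strands. E2F factors switch on genes of DNA replication. Such a word stood in the windows of 8 of the 29 genes (27.6%), against 4.51% of all 32851 mouse windows. The 8 were Bard1, Brca2, Chek1, Chek2, Msh6, Rad51b, Rad51c and Xrcc6. In Chek1 and Msh6 the word lies just after the start, so it is outside the runs shown above, and its surroundings read as follows.
Chek1, first base of the word 40 bases after the start: aagcaggtTTTGGCGGgaa
Msh6, first base of the word 16 bases after the start: ctcccgacTTTCCCGCcagcggcg

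The GC box, which Sp1-type factors bind, was in 22 of the 29 genes (75.9%), against 35.7% of all windows. The CCAAT box was in 15 (51.7%), against 37.4%. The CHR, which marks many mitotic genes, was in 2, Bard1 and Rad51b (6.9%), against 17.9%. For each word a repair gene counted once if any of its windows held it, while the share over all is of single windows. The shares thus have unlike units, and a gene with more windows had more chances of a match. Windows of 1 gene can overlap and the words can overlap in GC-rich stretches, and a match is a description of letters only.

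Levels are given as log2 of the processed spot intensity over the 75th percentile of the same array, so 0 is the level of that percentile and a difference of 1 is 2-fold. Levels of different probes are not set against each other. All 12 hair follicle stem cell markers (Cd34, Lgr5, Krt15, Sox9 and others) were well above background on all 20 arrays, but markers of other cell types were present too. On all 20 arrays were 5 of 8 macrophage and Langerhans markers, 4 of 8 of fibroblasts, 4 of 8 of melanocytes, 2 of 5 of T cells and none of 6 of endothelium, of which Pecam1 was on 17, Plvap on 16 and Cdh5 and Kdr on none. Among markers with a probe, 6 of 7 of differentiated epidermis, 5 of 7 of hair shaft and matrix and 2 of 4 erythroid ones were also on all 20. The share of probes well above background was 60.7% to 83.49% per array, and the number of arrays limits the precision. The arrays lay on 3 slides. The ND 3M and HFD 3M telogen arrays shared a slide, and the ND 4d and HFD 4d telogen arrays shared another. Anagen arrays always took the first column of their slide, telogen arrays never did, ND and HFD telogen arrays lay in different rows, and all Aged telogen arrays were on 1 slide that held no other telogen array, so phase and column, diet and row, and age and slide cannot be told apart in telogen. Aged telogen replicate 2 stood apart from the other Aged telogen arrays in its division genes: the mean over 16 mitosis genes, each centred on its telogen mean, was 1.15 there and -1.42 on both others.

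Within a telogen group the repair genes varied more than most genes. The SD over the 3 arrays of a group, pooled over the 5 groups, had a median of 1.02 over the 36 genes and 0.67 over all 18723, and it lay above 0.67 for 29 of the 36. The steadiest were Blm, a helicase that undoes crossed strands (SD 0.23), Msh6, which recognises mismatched bases (0.33), Fanca of the Fanconi core complex (0.38) and Rad52, an annealing protein (0.41). The nuclease Exo1 (2.86) and Palb2, which links Brca1 to Brca2 (2.83), varied most. Of the 36 probes 26 were well above background on all 20 arrays.

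The first comparison set the 5 anagen arrays against the 15 telogen arrays, within conditions. Of the 36 repair genes 5 passed the test, all 5 of them higher in anagen, and 31 did not, at an adjusted p below 0.05 (limma, two-sided, Benjamini-Hochberg over 18723 genes). Of all genes tested 6.12% passed, 2.81% higher and 3.31% lower. The 5 were Lig4, the ligase that seals joined ends, Chek1, the kinase that halts the cell cycle when replication stalls, Rad54l, a DNA motor of recombination, Fanci, the partner of Fancd2, and Msh6. The median difference was 0.80 over the 36 and -0.16 over all genes. A difference above 0 was found for 32 of the 36, against 39.6% of all genes, and 13 of the 36 had an unadjusted p below 0.05, against 22.9%. In 9 of the 36 the anagen array exceeded the telogen mean in 5 of 5 conditions, as in 9.25% of all genes: the 5 called genes with Xrcc5, Rad50, Brca2 and Exo1. Ercc1 alone lay below it in every condition, as 9.66% of all genes did.

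**Figure D1:**
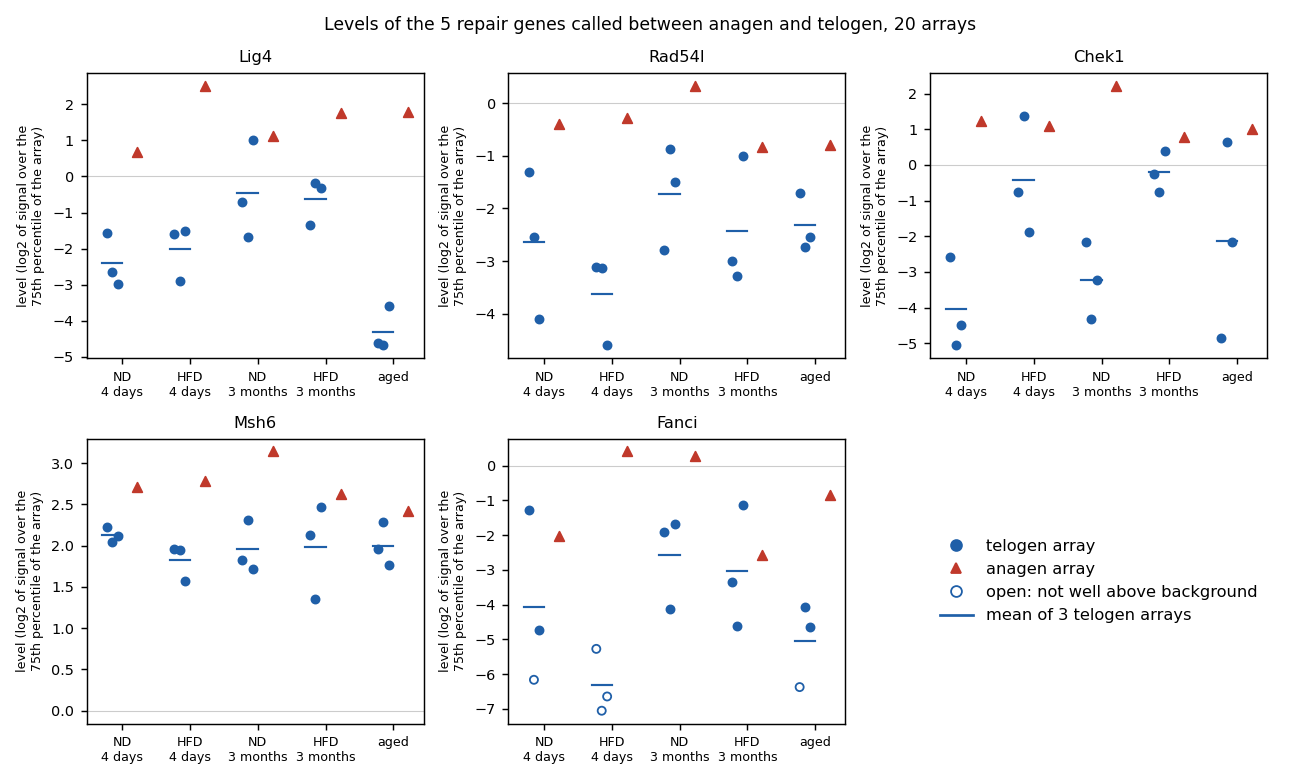
Level of each of the 5 called genes on every array, as log2 of signal over the 75th percentile of the array (vertical axis, a separate scale per gene), by condition (horizontal axis); circles are telogen arrays, triangles are anagen arrays, short lines are means of 3 telogen arrays, and open symbols are not well above background. The anagen array lies above the telogen mean of its condition in 5 of 5 conditions for every gene shown, and only for Rad54l does every anagen array lie above all 15 telogen arrays.

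Lig4 stood at 0.68 (ND 4d), 2.50 (HFD 4d), 1.12 (ND 3M), 1.77 (HFD 3M) and 1.78 (Aged) in anagen. On the 15 telogen arrays its lowest level was -4.68, the median -1.60 and the highest 1.02. The lowest anagen array lay above 14 of the 15 telogen arrays, and the overlap came from ND 3M telogen replicate 3 alone. The difference was 3.53 ± 0.54 (SE), an 11.5-fold higher level, with an adjusted p of 0.00101 (limma). By condition, anagen exceeded the telogen mean by 1.58 in ND 3M, 2.39 in HFD 3M, 3.09 in ND 4d, 4.49 in HFD 4d and 6.08 in Aged. The anagen and telogen arrays of ND 3M, ND 4d and Aged each shared a slide. With the slide as a term, only those conditions set the difference, which was 3.58 with an adjusted p of 0.0156 (limma). The array holds a second Lig4 probe, and it does not show the difference: its anagen levels ran from -7.00 to -0.26 and its telogen levels from -7.77 to -0.59, with a difference of 0.49 ± 1.14 (SE). That second probe was well above background on 9 of 15 telogen and 4 of 5 anagen arrays.

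Chek1 stood at 1.22 (ND 4d), 1.09 (HFD 4d), 2.21 (ND 3M), 0.79 (HFD 3M) and 1.01 (Aged) in anagen, against a lowest of -5.06, a median of -2.16 and a highest of 1.38 in telogen. Its lowest anagen array lay above 14 of 15 telogen arrays. The difference was 3.27 ± 0.81 (SE), 9.66-fold, with an adjusted p of 0.0243. The second Chek1 probe gave 3.21 ± 0.93 (SE), close to the first, and its 5 anagen arrays (0.40 to 1.63) all lay above its 15 telogen arrays (-7.25 to 0.09). That second probe did not reach an adjusted p below 0.05 over all probes tested (limma). It was well above background on 13 of 15 telogen arrays, and not on the lowest, at -7.25 and -5.03. By condition, the first probe gave 5.45 in ND 3M, 5.27 in ND 4d, 3.14 in Aged, 1.51 in HFD 4d and 1.00 in HFD 3M.

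Rad54l stood at -0.40 (ND 4d), -0.28 (HFD 4d), 0.32 (ND 3M), -0.84 (HFD 3M) and -0.79 (Aged) in anagen, against -4.60, -2.73 and -0.87 as the lowest, median and highest telogen levels. It was the only one of the 36 whose anagen arrays all lay above all telogen arrays, as 0.79% of all genes did. The difference was 2.15 ± 0.46 (SE), 4.43-fold, with an adjusted p of 0.0114.

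Fanci stood at -2.03 (ND 4d), 0.41 (HFD 4d), 0.28 (ND 3M), -2.58 (HFD 3M) and -0.83 (Aged) in anagen, against -7.05, -4.62 and -1.12 as the lowest, median and highest telogen levels. The groups overlapped, and 5 of the 15 telogen arrays, all 3 of HFD 4d among them, were not well above background. The difference was 3.25 ± 0.85 (SE), 9.53-fold, with an adjusted p of 0.0321. Msh6 moved least and varied least. Its anagen levels were 2.71 (ND 4d), 2.78 (HFD 4d), 3.14 (ND 3M), 2.63 (HFD 3M) and 2.42 (Aged), against 1.35, 1.96 and 2.47 as the lowest, median and highest telogen levels. Only HFD 3M telogen replicate 3 exceeded the lowest anagen array. The Msh6 difference was 0.76 ± 0.19 (SE), 1.69-fold, with an adjusted p of 0.025.

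Of these 5 calls only that of Lig4 held in every setting tried. With the slide as a term, Rad54l, Msh6 and Fanci no longer passed (adjusted p of 0.0847, 0.107 and 0.0877). That fit leaves the difference to ND 3M, ND 4d and Aged, so it also rests on fewer anagen arrays. It cannot tell a slide shift from that loss. Leaving out 1 anagen array at a time left Lig4 and Rad54l without ND 3M anagen, Lig4, Rad54l and Fanca without ND 4d anagen, Lig4 and Chek1 without HFD 4d anagen, and Lig4, Msh6 and Rad54l without Aged anagen.

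**Figure D2:**
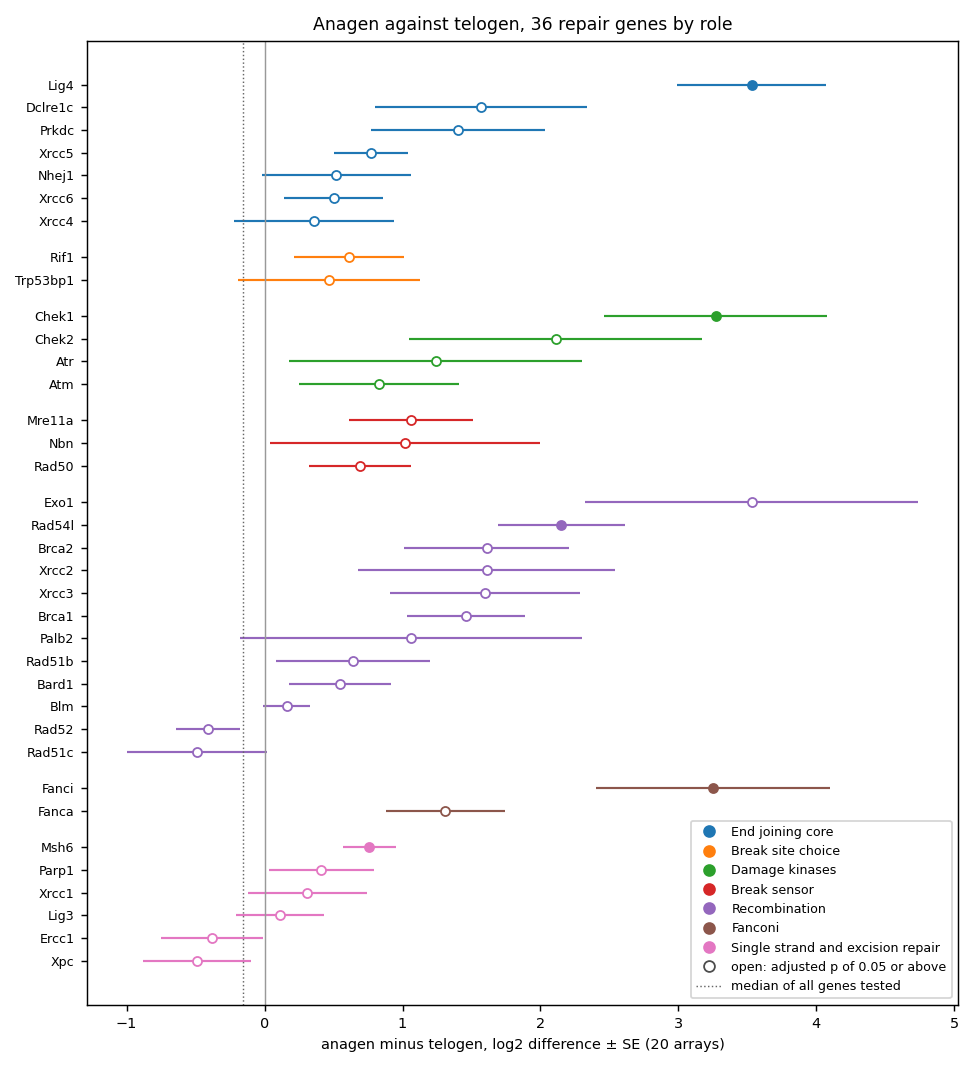
Difference between anagen and telogen for the 36 genes that passed the filter (horizontal axis, log2 with SE as bars, 20 arrays), grouped by role and coloured by it; filled points have an adjusted p below 0.05, and the dotted line is the median of all genes tested, -0.16. All 7 end joining genes, all 4 damage kinases and 10 of 12 recombination genes lie above 0, while single strand and excision repair lies on both sides.

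By role, the end joining core had a median difference of 0.77, with 7 of 7 genes above 0 and 1 called. After Lig4, the nuclease Artemis (Dclre1c) had 1.57 ± 0.77 (SE), the kinase DNA-PKcs (Prkdc) 1.40 ± 0.63 and the Ku80 subunit (Xrcc5) 0.77 ± 0.27, with adjusted p of 0.232, 0.202 and 0.0996. Xrcc5 was higher in anagen in 5 of 5 conditions. The Dclre1c value rests on its probe: the other 2 probes of the gene gave -1.71 and -1.67. The Ku70 subunit (Xrcc6, 0.50 ± 0.36), the end bridging factor Nhej1 (0.52 ± 0.54) and Xrcc4 (0.36 ± 0.58) lay closest to 0. The 2 genes of break site choice, Trp53bp1 and Rif1, which shield ends from resection, had 0.47 ± 0.66 and 0.61 ± 0.40.

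The damage kinases had a median of 1.68, with 4 of 4 above 0 and Chek1 called. Chek2, the checkpoint kinase under Atm, had 2.11 ± 1.06 (SE), Atr 1.24 ± 1.06 and Atm 0.83 ± 0.58. The break sensor, made of the nuclease Mre11a, the clamp Rad50 and the adaptor Nbn, had 1.06 ± 0.45, 0.69 ± 0.37 and 1.02 ± 0.98. None of these 6 passed.

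Recombination genes had a median of 1.26, with 10 of 12 above 0, 5 of 12 at an unadjusted p below 0.05 and Rad54l alone called. Brca1, which starts the resection of ends, had 1.46 ± 0.43 (SE, adjusted p = 0.0539), and it was higher in 4 of 5 conditions, with HFD 3M as the exception at -0.28. Exo1, which resects ends, had 3.53 ± 1.21 (adjusted p = 0.0953), and it passed once Aged telogen replicate 2, at 1.54, was left out. Brca2, a core protein of recombination, had 1.61 ± 0.60 (adjusted p = 0.123). Xrcc2 and Xrcc3, which also act in recombination, had 1.61 ± 0.93 and 1.60 ± 0.69. Palb2 had 1.06 ± 1.24, Rad51b 0.64 ± 0.56, Bard1, the partner of Brca1, 0.55 ± 0.37 and Blm 0.16 ± 0.17. The 2 below 0 were Rad52 (-0.41 ± 0.23) and Rad51c (-0.49 ± 0.51), and neither passed.

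Of the Fanconi genes, Fanci was called and Fanca had 1.31 ± 0.43 (SE, adjusted p = 0.0787). Fanca anagen exceeded the telogen mean by 3.74 in HFD 4d, 2.25 in ND 3M and 1.09 in HFD 3M, and lay below it in ND 4d (-0.46) and Aged (-0.06). Single strand and excision repair had the lowest median, 0.21. Beside Msh6 it held the strand break sensor Parp1 (0.41 ± 0.38), its scaffold Xrcc1 (0.31 ± 0.43), the ligase Lig3 (0.11 ± 0.32), the nuclease subunit Ercc1 (-0.38 ± 0.37) and the lesion sensor Xpc (-0.49 ± 0.39), none of which passed.

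The array carried 22 further probes of 18 of these genes that passed the filter. In 19 of the 22 the sign of the anagen difference was that of the brightest probe, and in 3 it was opposite. When the probes of a gene were averaged, 8 of the 36 passed: the 5 named above with Bard1, Brca1 and Brca2. Over all 18723 genes the count rose as well, to 1396 from 1145 with the brightest probe.

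A wider list of 135 repair genes outside the 37, of which 134 passed the filter, had 6 called higher and 1 lower, with a median difference of 0.35. That number of calls is near the 6.12% of all genes that passed, so it is no result about the list. The 4 with the smallest p were Fignl1, an ATPase of recombination (3.85 ± 0.62, SE), Rad54b, a relative of Rad54l (2.71 ± 0.58), Cyren, an inhibitor of end joining (-1.57 ± 0.38), and Rpa1, which coats single strands (1.15 ± 0.29). Cyren was the only one lower in anagen, and it was lower in every condition. It was also the only call among the 14 further end joining genes tested, whose median was -0.36.

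Division genes were also higher in anagen. Of 16 genes of DNA replication 11 passed, all 11 higher, with a median of 1.81, and of 16 mitosis genes 13 passed, all 13 higher, with a median of 3.58. As a mean over each list, centred on telogen, mitosis genes ran from 2.81 to 3.90 on anagen arrays and from -1.42 to 2.13 on telogen arrays. The same mean over the end joining core ran from 0.77 to 1.58 in anagen and from -0.88 to 0.53 in telogen, with no overlap. This mean takes Lig4 and Dclre1c from their brightest probes, and the other probes of these genes did not show the rise. Without these genes the gap closed, as the mean of HFD 3M anagen then lay within the telogen range. Against its own telogen mean that array was lower for Nhej1 (-0.85), Prkdc (-0.64) and Xrcc6 (-0.07). It was higher for Xrcc5 (0.52) and Xrcc4 (0.95). Over the 12 recombination genes the mean ran from 0.61 to 1.46 in anagen and from -0.76 to 0.82 in telogen, where ND 3M replicate 1 and Aged replicate 2 reached into the anagen range. Stem cell markers went the other way, with 3 of 12 called lower, none called higher, and means from -0.50 to -0.36 in anagen against -0.42 to 0.35 in telogen. Differentiated epidermis markers had 7 of 7 above 0 and 1 called, with means from 0.37 to 1.68 in anagen and from -2.24 to 1.56 in telogen. Of 6 fibroblast markers tested 1 was called higher and 2 lower, and 1 of 3 erythroid and 1 of 7 melanocyte markers were called lower. No macrophage and Langerhans, T cell, endothelial or hair shaft marker was called. The part of dividing cells or of other cell types in the repair gene differences was not tested, and a change in the share of cells of a kind cannot be told apart from a change of RNA per cell.

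**Figure D3:**
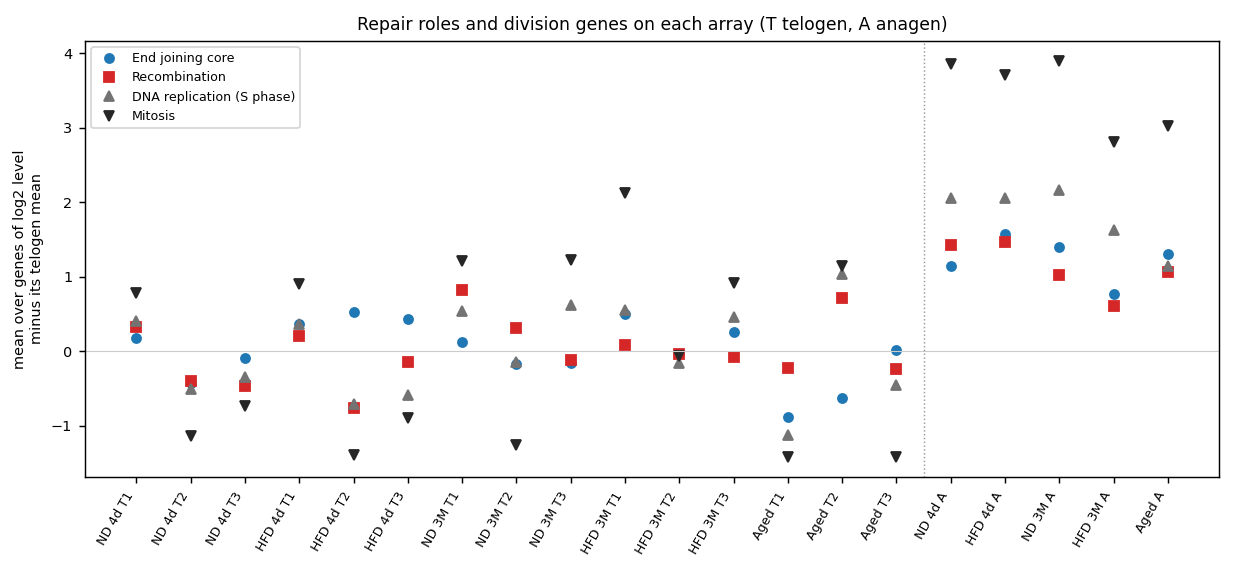
Mean over the genes of a list of the log2 level minus the telogen mean of each gene (vertical axis), on each of the 20 arrays (horizontal axis; T is telogen with its replicate number, A is anagen), for the end joining core, recombination genes, DNA replication genes and mitosis genes. The 5 anagen arrays lie between 0.77 and 1.58 for end joining and between 2.81 and 3.90 for mitosis, and Aged telogen replicate 2 has high recombination and division means but a low end joining mean.

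The other comparisons lie within telogen, where the 7 genes of the end joining core were followed on every array. Lig4 stood at -1.58, -2.66 and -2.99 in ND 4d, -1.60, -2.89 and -1.50 in HFD 4d, -0.71, -1.68 and 1.02 in ND 3M, -1.34, -0.19 and -0.33 in HFD 3M and -4.62, -4.68 and -3.59 in Aged. The order of the group means was ND 3M (-0.46 ± 1.37, SD, n = 3), HFD 3M (-0.62 ± 0.63), HFD 4d (-1.99 ± 0.77), ND 4d (-2.41 ± 0.74) and Aged (-4.30 ± 0.62). Aged lay below every other telogen array, ND 4d overlapped HFD 4d, and ND 3M overlapped HFD 3M. These levels are those of the brightest Lig4 probe, and on the second probe Aged overlapped the other groups.

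Nhej1 stood at 0.45, 0.28 and -2.95 in ND 4d, -2.73, -2.18 and -1.27 in HFD 4d, -3.79, -2.67 and -3.72 in ND 3M, -0.84, -1.54 and -1.06 in HFD 3M and -2.51, -2.26 and -0.55 in Aged. ND 3M was the lowest group and lay below HFD 3M and Aged without overlap, and ND 4d was split, with replicate 3 far below the other 2. Xrcc5, whose product holds DNA ends with Xrcc6, stood at 0.61, -0.26 and -0.39 in ND 4d, 0.20, -0.89 and -0.51 in HFD 4d, 0.13, -0.19 and 1.19 in ND 3M, -0.32, -0.94 and -0.72 in HFD 3M and -0.56, 0.61 and 0.42 in Aged. The 3 HFD 3M arrays lay below the 3 ND 3M arrays, and the other groups overlapped.

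Xrcc6 stood at 0.09, 0.00 and -0.59 in ND 4d, 1.21, 0.99 and 0.37 in HFD 4d, 1.24, 0.46 and 0.95 in ND 3M, 1.01, 0.47 and 0.93 in HFD 3M and -0.47, 2.39 and 0.82 in Aged. ND 4d lay below HFD 4d and ND 3M without overlap, and Aged ran from near the lowest array to the highest. Xrcc4 stood at -5.01, -3.97 and -2.87 in ND 4d, -3.25, -1.91 and -1.90 in HFD 4d, -3.33, -3.82 and -6.11 in ND 3M, -4.00, -4.70 and -3.24 in HFD 3M and -4.62, -6.20 and -4.52 in Aged. HFD 4d had the highest mean and Aged the lowest, though both overlapped other groups, and ND 3M replicate 3 and Aged replicate 2 were not well above background.

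Prkdc stood at -2.62, -1.05 and -0.98 in ND 4d, -0.51, -0.81 and -3.74 in HFD 4d, -1.76, -2.42 and -3.64 in ND 3M, -0.76, -0.73 and -1.72 in HFD 3M and -4.64, -5.21 and -1.60 in Aged. HFD 3M lay above ND 3M without overlap, and the 2 lowest of all 15 arrays were Aged. Dclre1c stood at -1.80, -6.43 and -0.96 in ND 4d, -1.91, 0.28 and 0.44 in HFD 4d, -2.10, -1.99 and -1.98 in ND 3M, -1.41, -3.80 and -3.17 in HFD 3M and 0.16, -0.16 and -1.97 in Aged. ND 4d replicate 2 was not well above background. The same array was also the lowest of its group for Nbn (-8.13) and Atm (-5.51).

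The comparison of age set the 3 Aged telogen arrays against the 3 ND 3M telogen arrays. None of the 36 passed in a comparison where 12 genes did (0.0641%), and 3 of the 36 had an unadjusted p below 0.05, against 11.9% of all genes. A difference above 0 was found for 16 of the 36, against 53.5%. Lig4 was the furthest from 0, at -3.84 ± 0.67 (SE; 95% interval -5.30 to -2.38), with an unadjusted p of 8.71e-05 and an adjusted p of 0.101 (limma). Over the other settings and left-out arrays the adjusted p of Lig4 ran from 0.0594 to 0.994, the highest where the slide was a term and the 5 anagen arrays were added to the fit, where the difference was -2.43. On the second Lig4 probe the difference was 0.60 ± 1.54 (SE), and the Aged arrays were at -4.11, -0.59 and -6.98 against -5.51, -2.52 and -5.45 for ND 3M. That probe thus gave no difference beyond its spread.

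Rif1 was next by p. Its Aged arrays stood at -1.28, -1.89 and -2.84 and its ND 3M arrays at -0.36, 0.00 and -1.50, so the groups overlapped, and the difference was -1.38 ± 0.60 (SE, adjusted p = 0.391). The second Rif1 probe gave -0.89 ± 0.81. With the slide as a term over all 20 arrays the Rif1 difference was -4.64 (adjusted p = 0.698). Here and for Lig4 that slide shift rests on single arrays, HFD 3M anagen and HFD 4d anagen. It thus does not separate age from slide in telogen. Over the other settings that kept every array the Rif1 difference ran no further from 0 than -1.57. Rad51c, a recombination gene, stood at -2.51, 0.91 and -2.82 in Aged and at -2.86, -2.93 and -3.75 in ND 3M. The groups did not overlap, but the size came from Aged replicate 2: the difference was 1.71 ± 0.76 (SE, adjusted p = 0.405) with it and 0.51 without it. In all, 8 of the 36 had groups that did not overlap, 4 higher in Aged (11.6% of all genes) and 4 lower (6.46%), where 18% of all genes did so in either direction. The higher ones were Dclre1c, Nhej1, Rad51c and Ercc1, and the lower ones Lig4, Trp53bp1, Xrcc3 and Xrcc1. The median difference was -0.31 over the 36 and 0.06 over all genes, and it ran from -0.48 to -0.02 as single arrays were left out. Division genes lay mostly below 0 as well, 15 of 16 DNA replication genes and 13 of 16 mitosis genes, none of them called, and their part in the Lig4 difference was not tested.

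Against ND 4d, Aged had no call among the 36 either, where 7 genes passed (0.0374%), and 5 of the 36 had an unadjusted p below 0.05, against 7.85% of all genes. Parp1 had the smallest p: it stood at -2.05, -0.53 and -1.31 in Aged and at 0.44, 0.49 and 0.00 in ND 4d. The groups did not overlap, as for 10.5% of all genes, and the difference was -1.60 ± 0.47 (SE, adjusted p = 0.385). Lig4 followed with -1.89 ± 0.67 (adjusted p = 0.518), again with no overlap and again not on the second probe, which gave 1.96 ± 1.54. Rif1 had -1.49 ± 0.60 (adjusted p = 0.565), with ND 4d at -0.61, 0.53 and -1.46, which overlapped the Aged arrays. With the slide as a term over all 20 arrays the Rif1 difference was -3.88, with a slide shift that rests on HFD 4d anagen. Lig4 and Parp1 alone had groups that did not overlap, both lower in Aged, as 6.52% of all genes were, and none was higher without overlap, as 3.97% were. The median difference was -0.09 over the 36 and over all genes, but it was 0.34 over the 36 without ND 4d replicate 1.

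ND 3M was also compared with ND 4d, and these arrays are the same ones that served as controls for age and for diet. The telogen arrays of ND 3M and ND 4d lay on different slides, so slide cannot be told apart from age or time on the diet. No repair gene passed, and 3 genes did (0.016%). At an unadjusted p below 0.05 there were 5 of the 36, against 11.9% of all genes. Nhej1 had -2.65 ± 0.82 (SE, adjusted p = 0.338), with overlap through ND 4d replicate 3. Lig4 had 1.95 ± 0.67 (adjusted p = 0.347), also with overlap. Atm, the kinase that answers double strand breaks, stood at -0.41, -1.56 and -0.19 in ND 3M and at -1.61, -5.51 and -1.76 in ND 4d. These groups did not overlap (24.2% of all genes did not), and the difference of 2.24 ± 0.91 (adjusted p = 0.376) became 0.97 without ND 4d replicate 2. Groups did not overlap for 2 genes higher in ND 3M, Xrcc6 and Atm (4.41% of all genes), and for 3 lower, Blm, Fanca and Parp1 (19.8%). The median was 0.30 over the 36 and -0.14 over all genes, and its sign turned with single arrays: it was -0.27 without ND 4d replicate 2, -0.10 without ND 3M replicate 1 and 0.92 without ND 4d replicate 1. Mitosis genes lay above 0 in 12 of 16, with a median of 1.12 and no call.

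**Figure D4:**
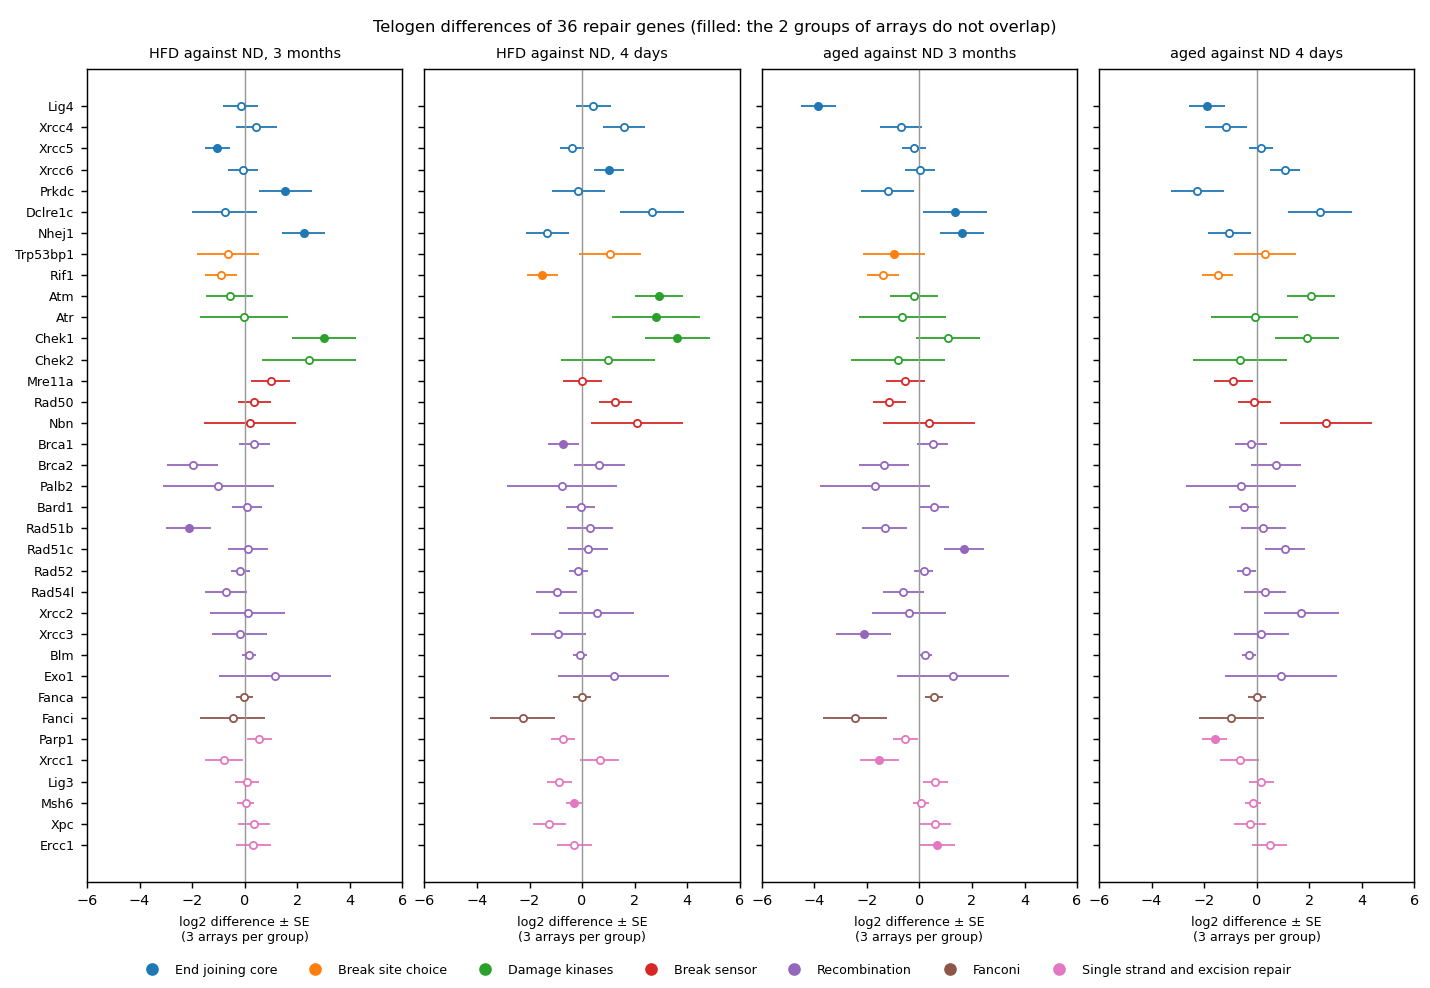
Telogen differences of the 36 genes (horizontal axes, log2 with SE as bars, 3 arrays per group) for HFD against ND at 3 months and at 4 days and for Aged against ND 3M and ND 4d; colours give the role, and filled points are genes whose 2 groups of arrays do not overlap. None has an adjusted p below 0.05; Lig4 lies lowest in Aged against ND 3M, at -3.84, and Chek1 lies highest in both diet comparisons, at 3.02 and 3.63.

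The comparisons of diet gave no call among the 36 at 3 months or at 4 days, and none among all 18723 genes (0%). At an unadjusted p below 0.05 there were 730 genes at 3 months (3.9%) and 817 at 4 days (4.36%), 4 of the 36 each time. The kinase Chek1 was among the 3 smallest p both times. It stood at -0.25, -0.76 and 0.39 in HFD 3M and at -2.16, -4.31 and -3.22 in ND 3M, a difference of 3.02 ± 1.22 (SE, adjusted p = 1). At 4 days it stood at -0.76, 1.38 and -1.87 in HFD and at -2.59, -5.06 and -4.48 in ND, a difference of 3.63 ± 1.22 (adjusted p = 1). HFD lay above ND without overlap at both times.

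Averaged over both times, the Chek1 difference was 3.33 ± 0.87 (SE; 95% interval 1.44 to 5.21), with an unadjusted p of 0.00225 and an adjusted p of 0.898 (limma). Every one of the 6 HFD arrays lay above every one of the 6 ND arrays, which held for 8 of the 18723 genes (0.0427%). In this average 3 of the 36 had an unadjusted p below 0.05, against 4.29% of all genes. Over the other settings the adjusted p ran from 0.195 to 1. The second Chek1 probe gave 1.15 ± 1.16 (SE), with HFD 3M at -0.44, -0.86 and -2.61, ND 3M at 0.09, -2.17 and -2.70, HFD 4d at -0.25, -2.05 and -0.96 and ND 4d at -0.04, -7.25 and -2.01. On that probe HFD and ND overlapped at both times. At 3 months 13 of 16 mitosis genes (median 0.78) and 7 of 7 differentiated epidermis markers (median 0.81) also lay above 0, and at 4 days 8 of 16 and 5 of 7 did, with none called. The mitosis mean overlapped between the diets at both times, and the part of either list in the Chek1 difference was not tested.

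**Figure D5:**
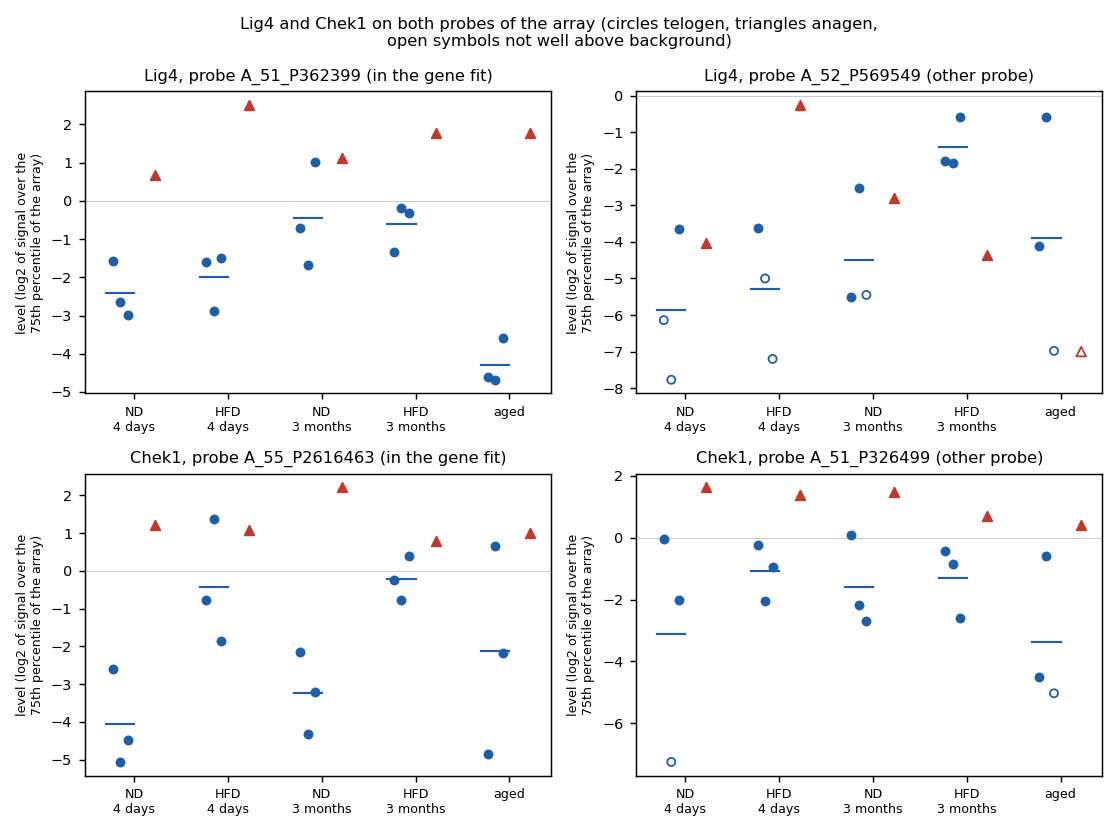
Levels of Lig4 and Chek1 on both probes of the array (vertical axes, log2 of signal over the 75th percentile of the array), by condition (horizontal axes); circles are telogen arrays, triangles anagen arrays, lines means of 3 telogen arrays, and open symbols are not well above background. For Chek1 both probes have anagen above the telogen means, by 3.27 and 3.21, while for Lig4 the first probe gives 3.53 and the second 0.49.

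The remaining genes named by p in the diet comparisons were Nhej1, Rad51b, Atm, Rif1 and Xrcc5. Nhej1 was higher in HFD 3M than in ND 3M without overlap, by 2.25 ± 0.82 (SE), and overlapped at 4 days, with -1.32 ± 0.82. Rad51b, a recombination gene, stood at -3.27, -3.51 and -5.03 in HFD 3M and at -0.09, -2.77 and -2.54 in ND 3M, a difference of -2.14 ± 0.86 with no overlap. Atm stood at -0.09, 0.51 and -0.55 in HFD 4d, above the ND 4d arrays, with a difference of 2.92 ± 0.91 that became 1.64 without ND 4d replicate 2. Rif1 stood at -1.97, -1.65 and -2.43 in HFD 4d, below ND 4d, a difference of -1.51 ± 0.60, and averaged over both times it had -1.21 ± 0.42. The second Rif1 probe gave 0.19 ± 0.57 for that average. Xrcc5 had -0.71 ± 0.33 averaged over both times, with the diets overlapping. All of these had an adjusted p of 1. Fanci was not well above background on any HFD 4d array, and these arrays overlapped the ND 4d arrays.

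At 3 months 5 of the 36 had groups that did not overlap (9.85% of all genes): Prkdc, Nhej1 and Chek1 were higher in HFD (4.15%), and Xrcc5 and Rad51b lower (5.7%). At 4 days 7 did (9.7%): Xrcc6, Atm, Atr and Chek1 were higher (3.73%), and Rif1, Brca1 and Msh6 lower (5.97%). Chek1 was the only one on both lists. The median difference was 0.05 at 3 months and 0.00 at 4 days over the 36, against -0.04 and -0.05 over all genes. All 4 damage kinases had a difference above 0 at 4 days (0.98 to 3.63) (45.5% of all genes) and 2 of 4 at 3 months (46.3%). The difference between the times was tested as an interaction, with no call among the 36 or among all genes (701 genes at an unadjusted p below 0.05, 3.74%, 2 of the 36). Its smallest p were those of Nhej1 (3.57 ± 1.16, SE), Atm (-3.50 ± 1.29) and Dclre1c (-3.44 ± 1.72), each with an adjusted p of 1. The wider list of 134 repair genes also had no call in any telogen comparison.

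In anagen there was 1 array per condition, so its conditions were compared without a test, by counting differences past 2-fold. Between HFD 3M and ND 3M, 5 of the 36 were higher and 12 lower, where 32.6% of all genes were higher and 14% lower, and the median was -0.63 against 0.44 over all genes. Between HFD 4d and ND 4d, 10 were higher and 3 lower (12.2% and 14.4% of all genes), with a median of 0.39 against -0.09. The sign of these medians thus differed between the times. Lig4 was higher in HFD by 0.65 and 1.82, Chek1 lower by -1.42 and -0.13, and Fanci moved by -2.86 and 2.44. The second Lig4 probe was at -4.36 in HFD 3M and -2.8 in ND 3M, and at -0.26 in HFD 4d and -4.04 in ND 4d.

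Between Aged and ND 3M, 5 were higher and 13 lower (22.6% and 14.4% of all genes), with a median of -0.51 against 0.26, and between Aged and ND 4d, 8 were higher and 8 lower (14.1% and 17.3%), with 0.01 against -0.06. On its brightest probe Lig4, lowest of all telogen groups in Aged, was not low in Aged anagen: it exceeded ND 3M anagen by 0.66 and ND 4d anagen by 1.1. The second Lig4 probe went the other way. It was at -7 and not well above background in Aged anagen, against -2.8 in ND 3M anagen and -4.04 in ND 4d anagen. Chek1 differed by -1.20 and -0.21, Rad54l by -1.11 and -0.39 and Msh6 by -0.72 and -0.28. With 1 array on each side these differences have no replicate check.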

How the data were processed

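RNA was hybridised to 20 Agilent 1-colour arrays. Per the file headers, the authors' scanner output was made with Agilent Feature Extraction 10.7.1.1, and its processed intensity is background-subtracted and detrended. The deposited series table holds a linear signal per probe, which was that intensity divided by about the 75th percentile of the array (at least 99.98% of values within 1%; column medians 0.088 to 0.168). Flags of other kinds (well above background, outlier, saturated) were used as deposited. The isolation of the cells is not stated in the labels.

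Control spots (leaving 59305 spots) and 62 to 159 outlier spots per array were left out, no spot was saturated, and spots of a probe were averaged. Of 56605 probes 32989 were named with 1 gene through their accession in a RefSeq table (GRCm38.p6) and 23616 were not named. The filter kept 43395 probes. Levels are log2 intensity minus the log2 75th percentile, with no pseudocount. Differences were fitted with limma 3.58.1 in R 4.3.3 over all 15 telogen arrays, or over 20 arrays with condition and phase, with two-sided tests and Benjamini-Hochberg adjustment over 18723 genes. The fit was tested on simulated data: for anagen against telogen it recovered 62.7% of 4-fold and 87.9% of 8-fold changes, and for Aged against ND 3M 13.4% and 50% (18717 genes). For HFD against ND it recovered 26.9% and 59.1% at 3 months and 29.9% and 56.1% at 4 days. The changes were placed in genes drawn from all genes, and recovery for the repair genes, which varied more than most, was not simulated.

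The genes, lists and alternatives were chosen with earlier results of these data known. Named in full were the 7 end joining genes in telogen, the genes past the threshold in a comparison or, where fewer than 2 passed, the 3 with the smallest p, and up to 4 further repair genes. Alternatives were another background correction, normalization, dim-probe filter, probe rule or model, slide or replicate as a term, only the arrays compared, and each array left out.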

Additional observations from a re-analysis of the deposited data

Results flagged for a closer look

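Probes that do not stand for their gene in the report gave a signal for Brca1 and Bard1, partners in the ubiquitin ligase that acts at breaks. The second Brca1 probe was 5.37 ± 0.98 (SE) higher in anagen on the log2 scale, with an adjusted p of 0.00567 over all probes tested (limma). Its 5 anagen arrays ran from 0.51 to 1.97 and its 15 telogen arrays from -7.38 to -0.55, with no overlap, and 9 of the telogen arrays were well above background. The brighter Brca1 probe gave 1.46 ± 0.43.

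The second Bard1 probe was well above background on none of the 15 telogen arrays and on 4 of the 5 anagen arrays. Its mean level in anagen was 3.92-fold higher, set against the lowest signal well above background on each telogen array. That mean takes HFD 3M anagen, at -5.78 and not well above background, at its value, so it is not a strict bound. In HFD 3M the probe was not well above background in either phase. The fitted log2 difference of 3.06 also takes telogen signals that are not well above background at their value, so neither size is exact. The brighter Bard1 probe gave 0.55 ± 0.37. Which part of each transcript the probes cover was not tested.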

How the results depend on the processing

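No repair gene passed in any telogen comparison under any alternative or with any array left out (0 throughout). In anagen against telogen the count of 5 became 8 with the mean over probes and 2 with the slide as a term. The slide term leaves the phase difference to ND 3M, ND 4d and Aged. The count ran from 2 to 6 as arrays were left out: 2 without ND 3M anagen, 3 without ND 4d anagen, 2 without HFD 4d anagen and 3 without Aged anagen. Lig4 passed each time, with an adjusted p of at most 0.036 (2.01 with the mean over probes). Over all genes the anagen count of 1145 was 1396 with the mean over probes, 677 with the slide term and 1761 with array weights. It was 555 without ND 3M anagen, 2056 without HFD 3M anagen, 609 without ND 4d anagen, 563 without HFD 4d anagen and 762 without Aged anagen. Quantile normalization moved the anagen median of all genes from -0.16 to -0.02. Over all genes Aged against ND 3M ran from 0 to 24, against 12. With the replicate number as a block, Lig4 in Aged against ND 3M stayed at -3.84 (adjusted p = 0.108) and 7 genes passed, against 12. Telogen arrays with the same number had a median correlation of deviations of 0.01 over 30 pairs, none over 0.1, and 4 of 15 arrays matched best with their own number, so the numbers did not pair the arrays. The sign turned for Rad51c in Aged against ND 3M with the slide term (-0.28), whose shift rests on HFD 3M and HFD 4d anagen. It also turned for Lig4 in Aged against ND 4d with the mean over probes (0.04). The cause was not tested. Groups of 3 arrays and dim probes (Fanci, Exo1 and Palb2 in telogen) limit the precision.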

Other observations

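Beside Fignl1, Rad54b and Rpa1, 3 more repair genes outside the 37 were called higher in anagen. The ligase of replication Lig1 was higher by 1.13 ± 0.29 (SE, adjusted p = 0.0281, limma), the flap nuclease Fen1 by 2.00 ± 0.57 (adjusted p = 0.0472) and Ube2t, which brings ubiquitin to the Fanconi complex, by 3.47 ± 0.96 (adjusted p = 0.0419), each in 5 of 5 conditions. The further Fanconi genes had 8 of 16 above 0 and the further mismatch genes 5 of 6. None of the 19 further nucleotide excision genes and none of the 19 further signalling genes passed (limma), with 2 and 5 of them at an unadjusted p below 0.05, where 22.9% of all genes were. Lig1, Fen1 and Ube2t are named here after their values were seen.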
